A study of Mus musculus with 48 samples.

Results

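The cells described here were the GABA and glutamatergic (Glut) cells of the hypothalamus of *Eed-cKO* mouse embryos, taken from a single-cell RNA-seq table of 14121 cells. Cells with at least 2000 UMIs were used, a UMI (unique molecular identifier) being a random tag that lets each captured transcript molecule be counted once. A GABA cell had at least 1 UMI of *Slc32a1*, the vesicular transporter of GABA and glycine, and none of *Slc17a6*, a vesicular transporter of glutamate, and a Glut cell had the converse. Of 6935 *Eed-cKO* cells, 5800 held enough UMIs, and these gave 593 GABA and 2130 Glut cells, 2723 in all. Of the other deep cells, 1091 held UMIs of both genes and 1986 of neither, and these were left out of the contrast. The same rule gave 1343 GABA and 2496 Glut cells among 5871 deep control cells, and these set the contrast that the mutant classes were compared with. Of the other deep control cells, 310 held UMIs of both genes and 1722 of neither. *Slc32a1* and *Slc17a6* chose the cells and were left out of every test. The comparison asks which genes that set GABA apart from Glut cells kept that contrast when *Eed* was deleted, and which lost it.

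Hypothalami were dissected at E18.5 and cut into pieces, dissociated, and sequenced on the droplet-based ddSEQ platform, which tags transcripts at the 3′ end. Control embryos were *Eed fl/fl* (6 embryos, 22 libraries), and mutants were *Eed fl/fl; Sox1-Cre/+* (9 embryos, 26 libraries). Both groups carried floxed *Eed* on both alleles, and the mutants also carried the Cre, whose driver *Sox1* is a gene of the early neural plate, so cells of other lineages need not carry the deletion. Both sexes were present in each group.

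*Eed* encodes a core subunit of polycomb repressor complex 2 (PRC2), which methylates histone H3 at lysine 27 and keeps many developmental transcription factor genes silent in lineages that do not use them. In the hypothalamus, GABA and glutamate neurons lie intermingled, and many neuropeptide neurons belong to one of these classes. GABA is made from glutamate by the decarboxylases that *Gad1* and *Gad2* encode, and in the forebrain the *Dlx* homeobox genes are best known for driving the GABA fate. Glutamatergic neurons arise from other progenitor domains under basic helix-loop-helix and LIM-homeodomain factors, among others.

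Counts were summed over the cells of a class in each embryo, so that the embryo was the replicate and each embryo gave a GABA and a Glut sum. An *Eed-cKO* embryo gave 14 to 106 GABA cells (median 75) with 52231 to 615546 UMIs and 53 to 359 Glut cells (median 242) with 210635 to 2575222 UMIs. The control sums were deeper, with 859260 to 1794580 UMIs for GABA and 2306134 to 3899529 for Glut. In the smallest mutant embryo, F0582_E2, 1 UMI was worth 16.8 CPM in the GABA sum, so that many of the lowest values given here are 0 or 1 UMI of that embryo. GABA cells made up 15.3% to 26.4% of the single-class cells of a mutant embryo (median 21.9%) and 27.7% to 38.4% in control (median 36.4%). These shares follow from the rule and were not tested.

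The threshold was low. Among mutant GABA cells 60.7% held just 1 UMI of *Slc32a1*, against 42.1% in control, and among mutant Glut cells 33% held 1 UMI of *Slc17a6*, against 20.7%. The shallowest cells taken held 2020 (GABA) and 2002 (Glut) UMIs, and the deepest left out for depth held 1999 and 1996. Cells with 0 UMIs of a transporter may still express it, and a single UMI may come from free RNA in the droplet. Because of the latter, each result that follows was also run with at least 2 UMIs of the class gene. That setting still asked only for 0 UMIs of the other transporter, so it cannot check whether the other was missed. Cells with UMIs of both transporters were 18.8% of the deep *Eed-cKO* cells and 5.28% of the deep control cells. Cells with a missed transporter may thus be more common in the mutant classes. Missed expression of the other transporter was not tested. Of the 2723 cells, 41 had a barcode that was also seen in another library, 2 of them within the same embryo. The summed level of 8 neuronal markers was 6855 to 8443 CPM in mutant GABA sums and 7807 to 8797 CPM in mutant Glut sums. *Eed* itself was at 4.44 to 43.1 CPM (median 17.6) in GABA and 15.6 to 29.7 CPM (median 24.5) in Glut cells, and at 22.6 to 34.6 CPM (median 30.5) in GABA and 27.4 to 36.8 CPM (median 30.5) in Glut cells in control. Tags at the 3′ end need not cover the deleted exons, so these levels do not check the deletion.

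A gene was called when its Benjamini-Hochberg adjusted p in edgeR's quasi-likelihood test, with the embryo as block, was below 0.05. Fold changes are GABA against Glut on the log2 scale, so that a positive value is higher in GABA. The standard error after ± was derived from the fold change and the F statistic of the test. It is not the spread of the embryos, which the ranges show. In *Eed-cKO*, 709 of 14039 genes tested were called (5.05%), 233 higher in GABA (1.66%) and 476 higher in Glut (3.39%). In control the counts were 896 of 14217 (6.3%), with 337 higher in GABA (2.37%) and 559 in Glut (3.93%). Scaled by library size alone in place of TMM, the mutant split was 307 higher in GABA and 371 in Glut, and with limma-voom it was 388 and 337, so the balance of the directions depends on the scaling and the tool. The contrast of the mutant was tested against that of the control in a joint model over 30 sums, and this difference was called in 140 of 15112 genes (0.926%), 51 of them positive and 89 negative. With limma-voom this balance was turned, with 98 positive and 47 negative differences.

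Most genes that divided the control classes kept their sign in the mutant, and fewer kept their call. Of the 337 genes that were GABA-higher in control, 335 could be tested in *Eed-cKO* and 115 (34.3%) were called GABA-higher there, 277 had the same sign, 217 were not called and 3 were called Glut-higher. Their median log2 fold change was 0.52 in control and 0.26 in *Eed-cKO*. Of the 559 Glut-higher genes of control, 554 could be tested, 499 had the same sign, 258 (46.6%) were called Glut-higher again, 289 were not called and 7 were called GABA-higher, with a median of −0.54 in control and −0.40 in *Eed-cKO*. Whether these shares differ was not tested. A gene that was not called in the mutant is not thereby shown to be equal in both classes, because the mutant held fewer GABA cells and 1 UMI weighs more in them. The difference itself was called in 42 of the 335 and in 43 of the 554 genes. The contrast was smaller in the mutant for each of the former and for 39 of the latter.

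The mirrored comparison starts from the genes called in *Eed-cKO*, since any list chosen by its calls in 1 genotype tends to show a smaller contrast in the other. Of the 233 genes GABA-higher in *Eed-cKO*, 209 could be tested in control and 115 (55.0%) were called GABA-higher, with medians of 0.74 in the mutant and 0.40 in control. Of the 476 genes Glut-higher in *Eed-cKO*, 258 (54.2%) were called Glut-higher in control, with medians of −0.67 and −0.25. Across the plot of both contrasts, the genes with the largest control fold changes lie mostly between the diagonal and the horizontal zero line.

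**Figure D1:**
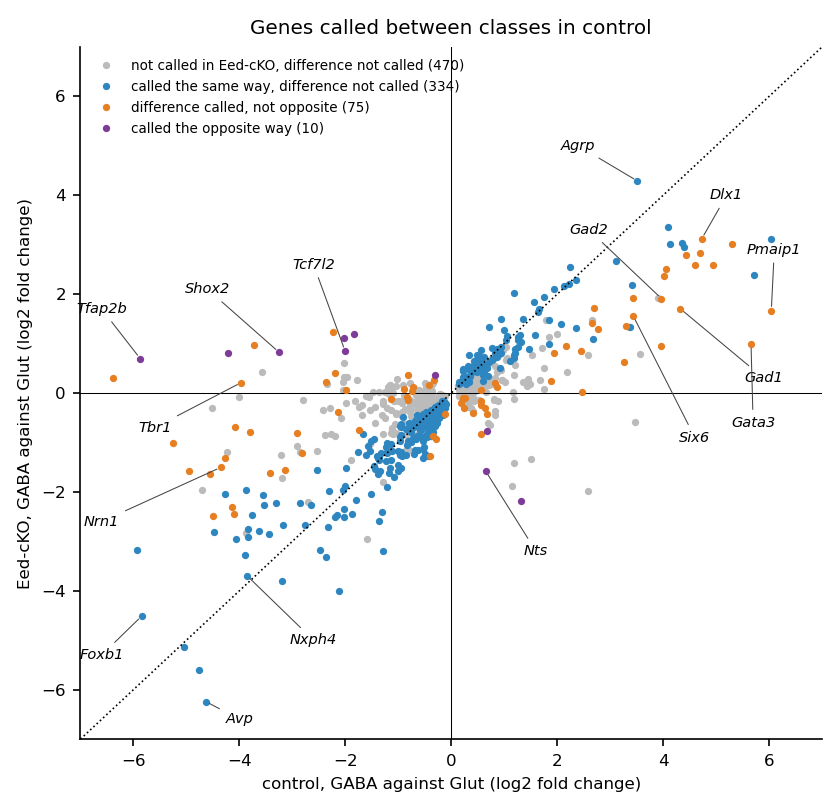
GABA against Glut log2 fold change in control (x) and *Eed-cKO* (y) for the 889 genes called in control and tested in both genotypes, with the dotted line marking equal contrasts. Grey points were not called in the mutant and had no called difference (470), blue points were called the same way without one (334), orange points had a called difference without a turned call (75), and purple points were called the opposite way (10).

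The difference between genotypes with the lowest adjusted p was that of *Gad1*, followed by *Gad2*, and both contrasts were smaller in the mutant. *Gad1* lay at 504 to 887 CPM (median 684) in GABA and 146 to 343 CPM (median 224) in Glut cells in *Eed-cKO*. In control it lay at 821 to 1073 CPM (median 959.7) in GABA and 32.3 to 75.6 CPM (median 42.3) in Glut cells. The classes did not overlap in either genotype, but the mutant Glut sums were all above the control Glut sums and the gap was narrower. The log2 fold change was 1.70 ± 0.08 in *Eed-cKO* (adjusted p = 6.57e-25, edgeR, higher in 9 of 9 embryos) and 4.33 ± 0.11 in control (adjusted p = 6.22e-19, 6 of 6), and the difference was −2.61 ± 0.15 (adjusted p = 5.17e-17). Levels of the genotypes set side by side, here and in what follows, were scaled by TMM within each genotype. *Gad2* lay at 218 to 414 CPM (median 261) in GABA and 51.3 to 99.0 CPM (median 77.8) in Glut cells in the mutant and at 365 to 459.5 CPM (median 426) in GABA and 19.9 to 39.4 CPM (median 25.2) in Glut cells in control. Its fold change was 1.91 ± 0.10 in *Eed-cKO* (adjusted p = 1.20e-23) and 3.97 ± 0.10 in control, a difference of −2.05 ± 0.15 (adjusted p = 2.79e-13). With at least 2 UMIs of the class gene per cell, the differences were −2.79 for *Gad1* and −2.33 for *Gad2*, so they were not smaller under that setting. It does not remove cells whose other transporter was missed, and the part of such cells in these differences was not tested.

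Per cell, the same pattern was seen after each cell had been thinned to 2000 UMIs. Among mutant GABA cells, 71.4% to 92.9% of the cells of an embryo (median 76.0%) held a UMI of *Gad1* or *Gad2*, with a mean of 79.4% ± 7.98 (SD, n = 9), and in control the mean was 84.6% ± 3.37 (SD, n = 6). Among mutant Glut cells the share was 22.7% to 41.8% (median 33.5%, mean 32.3% ± 6.57, n = 9), and among control Glut cells 7.29% to 14.8% (median 10.2%, mean 10.7% ± 3.05, n = 6). Each mutant embryo thus had a higher share of Gad-positive Glut cells than any control embryo, by 21.6 percentage points on average (exact two-sided permutation test over embryos, p = 0.0004, adjusted over 5 tests 0.000999, the smallest the doubled two-sided test can give). GABA cells were lower by 5.17 points in the mutant, which did not pass (exact permutation p = 0.161). The call depended on the setting, since it passed when cells were thinned to 1000 UMIs (−8.59 points, exact permutation test, adjusted p = 0.0285), when 2 Gad UMIs were required (−13.5, adjusted p = 0.031) and without F0582_E2 (−6.86, adjusted p = 0.0426). Within embryos GABA cells exceeded Glut cells by 47.1 points in *Eed-cKO* (9 of 9 embryos, exact sign-flip permutation p = 0.003906, the smallest possible) and by 73.9 points in control (6 of 6, exact p = 0.03125, the smallest possible), and the drop of 26.7 points in this gap was called (exact permutation p = 0.0004, adjusted 0.000999). Embryos whose codes start with the same F number may be littermates, which the labels do not say, and no F number held both genotypes. With such embryos combined, an alternative chosen after seeing the data that left 6 mutant and 4 control replicates, the Glut difference was 20.7 points and the drop in the gap 27.8 points (both exact permutation p = 0.009524, the smallest possible, adjusted 0.0238). The mutant gap between classes was then 46.5 points (exact p = 0.03125, the smallest possible, adjusted 0.0521).

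A level for free RNA was read from cells with at least 3 UMIs of endothelial markers that were in no transporter class. Such cells should lack both decarboxylases. Cells too shallow for the classes were also counted as outside them, whatever their transporter UMIs. The set may thus hold shallow cells, which can make its share too low. Of the endothelial-marker cells, 6.25% (10 of 160) held a *Gad1* or *Gad2* UMI in *Eed-cKO* and 3.76% (5 of 133) in control. Their median depths were 5495.5 and 4807 UMIs before thinning, against 5543 and 6739 UMIs in Glut cells. The control Glut share was closer to this level than the mutant Glut share, but the level may be too low. The part of free RNA in either Glut share was not tested. Without thinning the mean share of Glut cells was 45.7% in *Eed-cKO* and 21.3% in control, and that of the endothelial-marker cells was 13.8% and 12.0%.

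**Figure D2:**
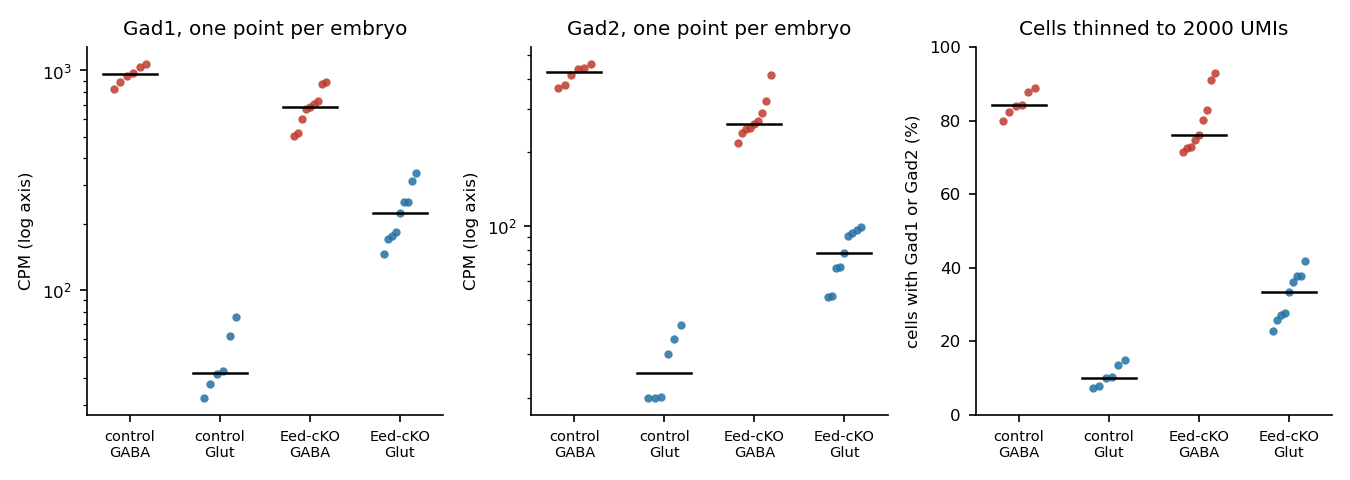
*Gad1* and *Gad2* levels (CPM, log axes) and the share of cells with a UMI of either gene after thinning to 2000 UMIs, one point per embryo (6 control, 9 *Eed-cKO*) and class, with bars at the medians. In all 3 panels the mutant Glut points sit above the control Glut points, at median shares of 33.5% against 10.2%.

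The promoters of *Gad1* and *Gad2* are printed here because PRC2 is known to act at promoters rich in CG pairs, together with those of *Dlx1* and *Tbr1*, the transcription factor genes with the most and the fewest CG pairs of these 4. Each is 300 bases of RefSeq sequence on GRCm38.p6, from 250 bases before to 50 after the annotated start, 5′ to 3′, and capitals mark CG pairs.
*Gad1*: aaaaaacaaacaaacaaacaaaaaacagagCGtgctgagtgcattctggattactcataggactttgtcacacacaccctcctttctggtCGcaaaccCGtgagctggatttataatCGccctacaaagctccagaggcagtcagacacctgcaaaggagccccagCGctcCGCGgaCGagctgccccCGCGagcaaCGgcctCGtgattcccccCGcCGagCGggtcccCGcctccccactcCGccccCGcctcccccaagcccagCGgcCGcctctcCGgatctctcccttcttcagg
*Gad2*: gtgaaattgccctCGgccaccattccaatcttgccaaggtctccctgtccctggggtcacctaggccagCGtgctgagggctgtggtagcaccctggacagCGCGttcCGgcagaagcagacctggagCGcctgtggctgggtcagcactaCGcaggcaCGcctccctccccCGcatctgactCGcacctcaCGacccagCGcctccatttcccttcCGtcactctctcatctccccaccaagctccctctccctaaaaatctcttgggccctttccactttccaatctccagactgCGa
*Dlx1*: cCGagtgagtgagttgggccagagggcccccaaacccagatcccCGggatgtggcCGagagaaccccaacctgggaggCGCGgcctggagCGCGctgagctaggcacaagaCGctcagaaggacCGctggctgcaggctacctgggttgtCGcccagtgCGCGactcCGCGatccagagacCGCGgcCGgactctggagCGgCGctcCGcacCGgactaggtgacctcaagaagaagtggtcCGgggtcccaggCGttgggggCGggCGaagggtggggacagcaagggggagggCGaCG
*Tbr1*: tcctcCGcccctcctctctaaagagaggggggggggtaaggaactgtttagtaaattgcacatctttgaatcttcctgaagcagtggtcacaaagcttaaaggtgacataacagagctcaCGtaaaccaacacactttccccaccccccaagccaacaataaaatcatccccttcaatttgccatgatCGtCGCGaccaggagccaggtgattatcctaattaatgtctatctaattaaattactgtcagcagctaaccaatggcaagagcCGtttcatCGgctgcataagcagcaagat
They stand on the plus strand at chr2:70561879-70562178 (*Gad1*), chr2:22622077-22622376 (*Gad2*), chr2:71529195-71529494 (*Dlx1*) and chr2:61804203-61804502 (*Tbr1*). The windows hold 21, 14, 27 and 7 CG pairs in that order, and of all 32851 mouse promoters in the RefSeq table, 24.8%, 36.3%, 15.5% and 52.1% hold at least as many. No binding or histone mark was measured in these cells, so the count of pairs only describes the sequence.

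The gene of the GABA transaminase was called GABA-higher in both genotypes. Of 7 genes of GABA synthesis, uptake and breakdown tested, 4 were called GABA-higher in *Eed-cKO* and the same number in control. This list and those that follow were chosen with earlier results of these data known. Their counts may lie above the shares of all genes for that reason, and no list was tested as a set. The shares of all genes called GABA-higher were 1.66% and 2.37%. The list medians were 0.62 and 0.52 beside −0.04 and −0.01 over all genes. *Abat*, which encodes the GABA transaminase, lay at 118 to 221 CPM (median 182) in GABA and 89.3 to 129 CPM (median 119.9) in Glut cells, with fold changes of 0.62 ± 0.09 in the mutant (adjusted p = 1.13e-06, higher in 9 of 9 embryos) and 0.52 ± 0.07 in control. Among 7 genes of glutamate handling, 1 was called in the mutant, where 5.05% of all genes were called. It was the glutamate transporter *Slc1a1* (−0.54 ± 0.16, adjusted p = 0.0338). That call was lost with another size factor (adjusted p = 0.0575) and without F0582_E7 (−0.48), F0652_E5 (−0.41), F0652_E8 (−0.50) or F502_E6 (−0.50).

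Transcription factors of the forebrain GABA lineage stayed higher in mutant GABA cells, most of them with a smaller contrast. Of 14 tested in *Eed-cKO*, 13 were called GABA-higher, none Glut-higher, and the median log2 fold change was 2.59. Of all genes, 1.66% were called GABA-higher in *Eed-cKO* and 2.37% in control. In control 14 of 15 were called, with a median of 4.36, which was the same with *Dlx6*, which had no UMI in control Glut cells, set at its lower bound. The difference between genotypes was called and negative in 10 of 15, where 0.926% of all genes had a called difference. *Dlx1*, a homeobox gene at the head of this lineage, lay at 168 to 355 CPM (median 229) in GABA and 18.495 to 41.6 CPM (median 27.2) in Glut cells in *Eed-cKO* and at 326 to 534 CPM (median 504) in GABA and 8.90 to 42.7 CPM (median 13.5) in Glut cells in control. The classes were separate in both genotypes. The mutant GABA range reached lower than that of control, and the control Glut maximum came from embryo F4650_E2, the other 5 lying at 8.90 to 16.3 CPM. Its fold change went from 4.73 ± 0.19 in control to 3.12 ± 0.12 in the mutant (adjusted p = 3.29e-30), a difference of −1.60 ± 0.26 (adjusted p = 9.50e-05). *Dlx2*, its neighbour and partner, lay at 84.3 to 154 CPM (median 101) in GABA and 8.03 to 33 CPM (median 14.3) in Glut cells in the mutant and 90.1 to 153 CPM (median 109.5) in GABA and 2.74 to 12.5 CPM (median 3.77) in Glut cells in control, so that both ranges overlapped between genotypes and the Glut median was higher in the mutant. The difference was −1.63 ± 0.31 (adjusted p = 0.000962).

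*Isl1*, a LIM-homeodomain factor, lay at 183 to 463 CPM (median 299) in GABA and 67.5 to 136 CPM (median 103) in Glut cells in the mutant, with the classes apart. Its fold change was 1.71 ± 0.09 against 2.70 ± 0.09 in control (difference −0.98 ± 0.14, adjusted p = 5.23e-06). *Meis2* gave 1.36 ± 0.10 against 3.30 ± 0.29 (adjusted p of the difference 0.000144). *Six3*, a homeobox gene of the anterior neural plate, gave 1.3 ± 0.11 against 2.77 ± 0.10 (adjusted p of the difference 2.83e-08), and its mutant GABA sums lay at 106 to 369.7 CPM (median 279.8).

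No difference was called for *Sp9*, *Gsx1*, *Dlx6os1* and *Dlx6*. *Sp9*, a zinc finger gene of interneuron precursors, lay at 19.2 to 62.8 CPM (median 33.6) in GABA and 0.579 to 16.2 CPM (median 6.80) in Glut cells in *Eed-cKO* and 28.4 to 49.0 CPM (median 42.0) in GABA and 3.10 to 19.5 CPM (median 8.43) in Glut cells in control, with the classes apart in both. The contrast of *Sp9* was 2.56 ± 0.29 in the mutant and 2.24 ± 0.24 in control, a difference of 0.31 ± 0.38 (adjusted p = 0.933). *Gsx1*, a homeobox gene of GABA progenitors, gave 3.36 ± 0.41 in the mutant (adjusted p = 3.90e-09) and 4.10 ± 0.41 in control. *Dlx6os1*, an RNA antisense to *Dlx6*, gave 3.03 ± 0.21 and 4.36 ± 0.26, and its difference of −1.32 ± 0.38 did not pass (adjusted p = 0.0880) but did without control embryo F4650_E2 (−1.76, adjusted p = 0.00204). *Lhx6* and *Lhx8*, which mark interneuron and preoptic lineages, kept their mutant calls (2.82 ± 0.26 and 3.01 ± 0.35). Their called differences from control, −1.80 ± 0.43 and −2.19 ± 0.56, were lost with at least 2 UMIs of the class gene (adjusted p = 0.491 and 0.699). That of *Lhx6* was also lost without F0652_E8 (−1.57), or without control embryo F4520_E2 (−1.56), F4530_E2 (−1.69) or F4650_E1 (−1.64), and that of *Lhx8* was lost in 8 of the fits that left out 1 embryo, at −2.13 to −1.91.

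**Figure D3:**
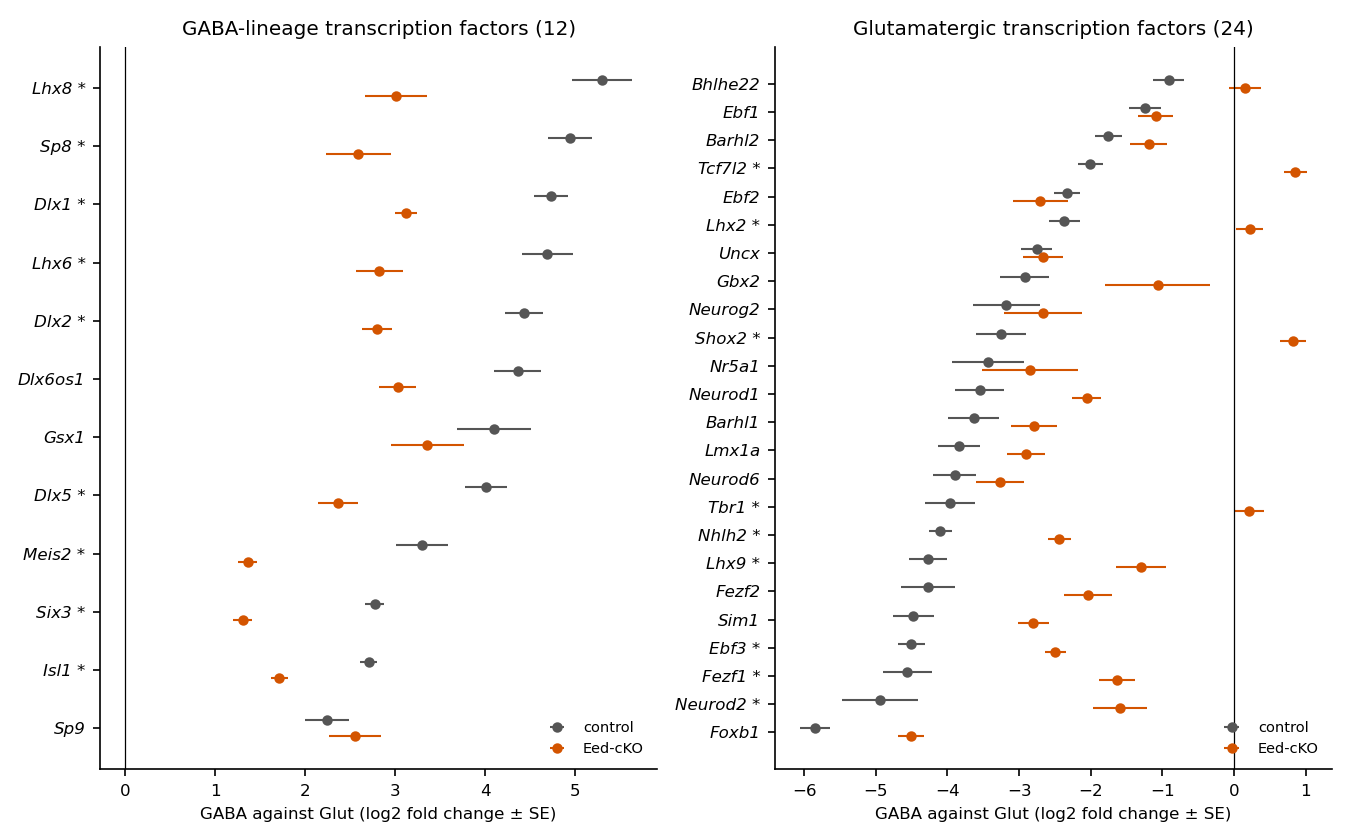
GABA against Glut log2 fold change ± SE in control (dark grey, n = 6 embryos) and *Eed-cKO* (orange, n = 9) for 12 of 14 GABA-lineage and 24 of 25 glutamatergic transcription factor genes tested in both (the others are not reported here by name), with a star where the difference was called. The points of *Sp9*, *Uncx* and *Ebf1* lie close together, and those of *Tbr1*, *Shox2*, *Tcf7l2* and *Lhx2* have crossed to the positive side in the mutant.

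Among factors best known from GABA neurons of the midbrain, hindbrain and spinal cord, some divided the mutant classes in each direction. Of 12 tested in *Eed-cKO*, 3 were called GABA-higher and 2 Glut-higher (median 0.51, with 5.05% of all genes called). In control 3 and 4 of 9 were (median −0.83, with 6.3% of all genes called). *Gata3*, a zinc finger factor of GABA neurons, lay at 0 to 95.9 CPM (median 53.2) in GABA and 15.6 to 65.8 CPM (median 30.3) in Glut cells in the mutant, where the classes overlapped, and at 4.60 to 46.9 CPM (median 26) in GABA and 0 to 1.71 CPM (median 0.301) in Glut cells in control. Its control contrast of 5.66 ± 0.37 was 0.99 ± 0.19 in the mutant, with the difference at −4.59 ± 0.47 (adjusted p = 3.25e-09). *Tal1*, a helix-loop-helix partner of the GATA factors, lay at 67.2 to 166 CPM (median 107) in GABA and 48.0 to 101 CPM (median 59.3) in Glut cells in the mutant and 8.05 to 24.4 CPM (median 12.8) in GABA and 0.258 to 1.36 CPM (median 0.937) in Glut cells in control. It was higher in GABA in 7 of 9 mutant embryos (0.95 ± 0.14, adjusted p = 4.54e-07), with a difference of −2.96 ± 0.41 from control (adjusted p = 4.08e-06). Both genes were thus present in both mutant classes and nearly absent from control Glut cells. The mutant call of *Gata3* was lost with cells of at least 4000 UMIs (adjusted p = 0.0881) and after thinning (0.447), and the difference of *Tal1* was lost after thinning (0.154). In these fits, unlike in the Gad shares, the classes were called anew on counts thinned to 2000 UMIs. The cells thus changed as well, to 527 GABA and 1728 Glut cells in *Eed-cKO*.

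*Tfap2b*, an AP-2 factor, turned from Glut-higher to GABA-higher. It lay at 0 to 154 CPM (median 77.0) in GABA and 20.8 to 123 CPM (median 45.2) in Glut cells in *Eed-cKO* (0.70 ± 0.17, adjusted p = 0.00524), and control GABA cells held 1 UMI of it against 190 in Glut cells, a ratio of 82.3 with an exact 95% counting interval of 14.6 to 3266. The difference was 6.38 ± 0.76 (adjusted p = 1.71e-07), and its size rests on that single UMI. The mutant call was lost without embryo F0588_E7 (0.44, adjusted p = 0.160) and with DESeq2 (adjusted p = 0.412). *Lhx5* and *Lhx1*, LIM-homeodomain factors, were Glut-higher in the mutant (−1.02 ± 0.24 and −1.10 ± 0.24) and in control (−1.21 ± 0.17 and −0.52 ± 0.15), with differences that were not called. The control call of *Lhx1* was lost without any one of F4520_E2 (−0.35, adjusted p = 0.312), F4520_E4 (−0.56, 0.0711), F4530_E2 (−0.53, 0.0511) and F4650_E1 (−0.43, 0.134). *Tfap2a*, *Pax2* and *Pax8*, factors of posterior GABA neurons, were not called between the mutant classes (0.18 ± 0.32, 1.02 ± 0.54 and 0.32 ± 0.82), at median levels of 13.7 and 12.4 CPM, 7.0 and 2.95 CPM and 0 and 0.983 CPM in GABA and Glut.

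Most glutamatergic transcription factors stayed Glut-higher, and 3 were called the other way. In control, 25 of 25 tested were called Glut-higher (median −3.63), against 3.93% of all genes. In *Eed-cKO* 19 of 26 were (median −2.05), 3 were called GABA-higher and 4 were not called, against 3.39% Glut-higher and 1.66% GABA-higher over all genes. The difference was called and positive in 10 of 26, beside 0.926% of all genes with a called difference. The members that kept a wide gap included *Foxb1*, a forkhead gene of the mammillary body, which lay at 0 to 15.6 CPM (median 6.61) in GABA and 84.6 to 272 CPM (median 187) in Glut cells in the mutant and 0 to 9.17 CPM (median 2.25) in GABA and 91.6 to 249 CPM (median 134) in Glut cells in control, with the classes apart. The contrast was −4.51 ± 0.18 in the mutant (adjusted p = 2.44e-29) and −5.85 ± 0.21 in control. Its annotated exons overlap those of *B230323A14Rik* on the other strand, which was counted at 1 UMI in mutant GABA and 289 in mutant Glut cells, and reads of the pair cannot be told apart without strand. *Sim1*, needed for the paraventricular and supraoptic nuclei, lay at 0 to 21.5 CPM (median 7.19) in GABA and 31.5 to 113 CPM (median 73.1) in Glut cells in the mutant, again with no overlap. Its fold change was −2.80 ± 0.22 against −4.47 ± 0.28 in control, and the difference, not called here (adjusted p = 0.148), was called with at least 2 UMIs of the class gene (3.20, adjusted p = 0.000296) and without control embryo F4650_E2 (2.71, adjusted p = 0.000418).

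*Lmx1a*, a LIM-homeodomain gene of the posterior hypothalamus, gave −2.90 ± 0.26 in the mutant and −3.84 ± 0.29 in control. *Barhl1* gave −2.79 ± 0.32 and −3.63 ± 0.36. *Uncx*, a paired-type homeobox gene, gave −2.67 ± 0.28 and −2.76 ± 0.22 (difference 0.09 ± 0.46, adjusted p = 1.00). *Neurod6* gave −3.27 ± 0.34 and −3.90 ± 0.30. For these 4 genes the difference was not called, and all 9 mutant embryos were Glut-higher. *Ebf3* and *Nhlh2*, helix-loop-helix genes, had smaller contrasts in the mutant, with differences of 2.01 ± 0.34 and 1.66 ± 0.32 (adjusted p = 0.000153 and 0.00117).

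*Tbr1* and *Lhx2* were not called between the mutant classes, and *Shox2*, *Tcf7l2* and *Tlx3* were called GABA-higher. *Tbr1*, a T-box gene of cortical and other glutamatergic neurons, lay at 0 to 57.7 CPM (median 30.3) in GABA and 16 to 70.5 CPM (median 27.6) in Glut cells in *Eed-cKO* and at 0 to 3.14 CPM (median 1.08) in GABA and 3.86 to 62.5 CPM (median 19.5) in Glut cells in control. The Glut levels of the genotypes overlapped, and all mutant GABA sums other than that of F0582_E2, which was at 0, were above all control GABA sums. Its fold change was 0.21 ± 0.21 in the mutant (adjusted p = 0.755, higher in GABA in 5 of 9 embryos) against −3.97 ± 0.35 in control, a difference of 4.16 ± 0.45 (adjusted p = 8.20e-09). *Lhx2*, a LIM-homeodomain gene, showed the same picture at 17.6 to 71.0 CPM (median 50.3) in GABA and 24.3 to 50.2 CPM (median 32.9) in Glut cells in the mutant and 1.89 to 9.17 CPM (median 5.94) in GABA and 13.1 to 43.0 CPM (median 28.7) in Glut cells in control, with a difference of 2.58 ± 0.32 (adjusted p = 3.16e-07). *Shox2*, a homeobox gene of thalamic and brainstem neurons, lay at 22.2 to 118 CPM (median 48.7) in GABA and 16.8 to 63.0 CPM (median 27.0) in Glut cells in the mutant and 0 to 10.8 CPM (median 1.28) in GABA and 7.42 to 52.8 CPM (median 30.4) in Glut cells in control. It was called GABA-higher in the mutant (0.83 ± 0.19, adjusted p = 0.00169, 7 of 9 embryos), and the difference was 4.08 ± 0.41 (adjusted p = 1.70e-09). The mutant call was lost without the embryo block (0.76, adjusted p = 0.0834), with cells of at least 4000 UMIs (0.0974) and after thinning (0.306).

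*Tcf7l2*, a Wnt pathway factor abundant in thalamic neurons, lay at 50.4 to 286 CPM (median 141) in GABA and 35.3 to 491 CPM (median 66.0) in Glut cells in the mutant and 105 to 240.4 CPM (median 123) in GABA and 136 to 1068 CPM (median 713) in Glut cells in control. One mutant embryo, F502_E6, stood apart at 491 CPM in Glut, where the other 8 lay at 35.3 to 101 CPM. The fold change was 0.85 ± 0.16 in the mutant (adjusted p = 9.34e-05), 1.14 without F502_E6 (adjusted p = 2.74e-08), and −2.01 ± 0.17 in control, and the difference was 2.83 ± 0.30 (adjusted p = 4.29e-09). The mutant call was lost with DESeq2 (adjusted p = 0.181) and without the embryo block (0.679). *Tlx3*, a homeobox gene of spinal and hindbrain excitatory neurons, rested on 20 UMIs in mutant GABA and 16 in mutant Glut cells (2.13 ± 0.62, adjusted p = 0.0263), and its call was lost with at least 2 UMIs of the class gene (adjusted p = 0.254) and without F0588_E7 (1.84), F0589_E1 (1.90) or F0652_E8 (2.09).

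**Figure D4:**
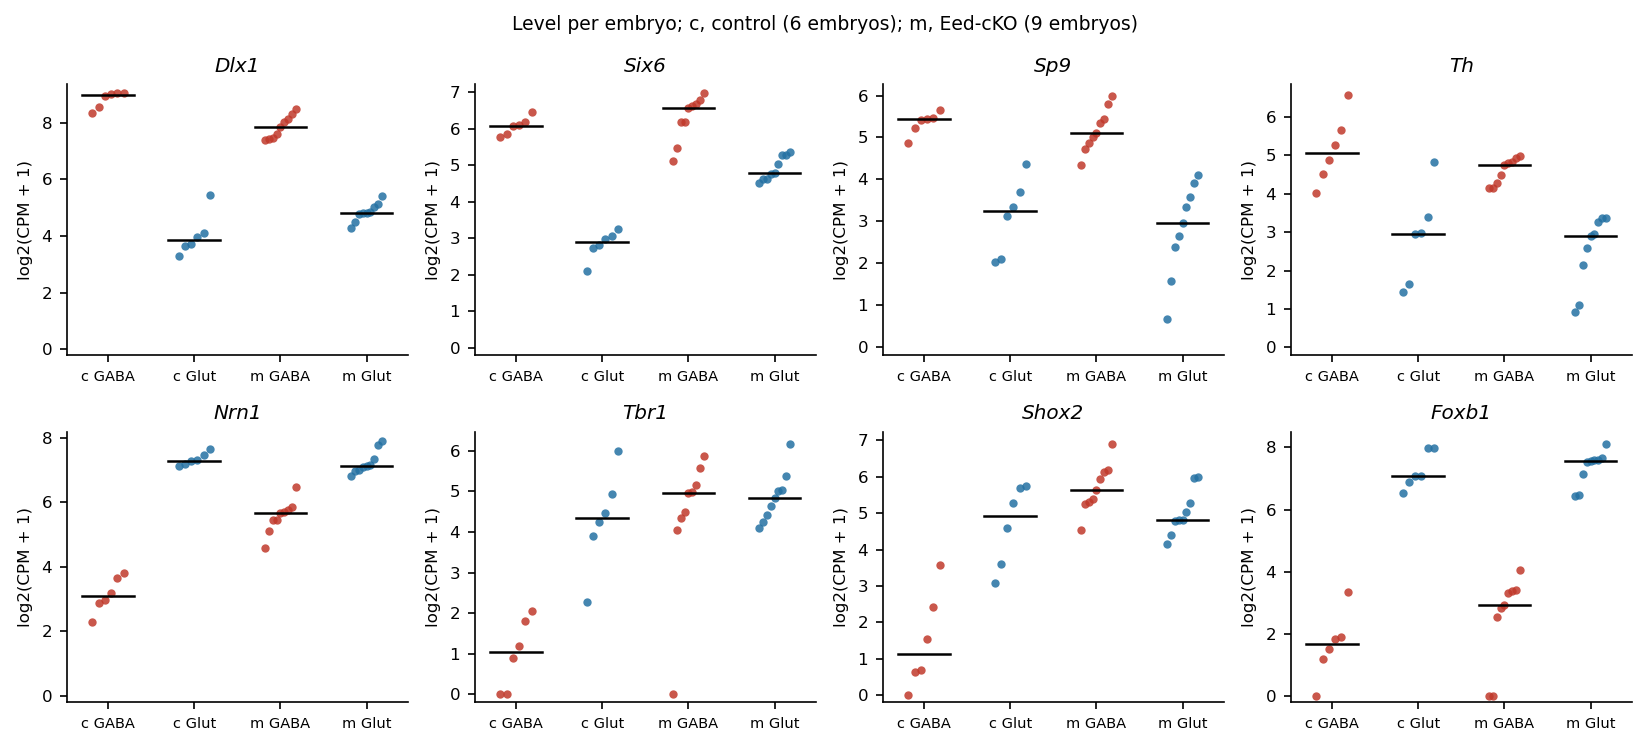
Level per embryo as log2(CPM + 1) of 4 GABA-side genes (top) and 4 Glut-side genes (bottom), with control (c, 6 embryos) on the left and *Eed-cKO* (m, 9 embryos) on the right of each panel and bars at the medians. The classes of *Sp9* and *Foxb1* do not overlap in either genotype, all mutant Glut points of *Six6* sit above the control ones, and those of *Tbr1* overlap in the mutant, with medians of 30.3 CPM in GABA and 27.6 CPM in Glut.

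Among 15 factors that pattern hypothalamic regions, 5 were called GABA-higher and 2 Glut-higher in the mutant (median 0.44), against 6 and 1 of 13 in control (median 0.81). The GABA-higher and Glut-higher shares of all genes were 1.66% and 3.39% in the mutant and 2.37% and 3.93% in control. *Hmx2* and *Hmx3*, homeobox genes of the arcuate region, had nearly the same fold change in both genotypes: *Hmx2* gave 2.17 ± 0.35 in the mutant and 2.14 ± 0.22 in control, and *Hmx3* 2.28 ± 0.41 and 2.36 ± 0.27. *Hmx2* lay at 0 to 39.7 CPM (median 24.3) in GABA and 1.80 to 14.7 CPM (median 5.88) in Glut cells in the mutant. *Six6*, a homeobox gene of the ventral forebrain, lay at 33.6 to 124 CPM (median 94.2) in GABA and 21.9 to 40.3 CPM (median 26.6) in Glut cells in the mutant and 54.0 to 86.4 CPM (median 66.8) in GABA and 3.26 to 8.48 CPM (median 6.43) in Glut cells in control, so that every mutant Glut sum was above every control Glut sum. Its contrast was 1.56 ± 0.16 against 3.44 ± 0.17, and the difference (−1.86 ± 0.25, adjusted p = 1.63e-06) was lost with at least 2 UMIs of the class gene (−1.16, adjusted p = 0.138). *Nkx2-1*, which specifies the ventral hypothalamus, was less Glut-biased in the mutant (−0.75 ± 0.11 against −1.75 ± 0.12, adjusted p of the difference 0.000625). *Tbx3*, a T-box gene of the tuberal hypothalamus, kept its GABA bias (1.40 ± 0.17 and 2.08 ± 0.23) at mutant GABA levels of 54.0 to 127 CPM (median 73.0), all above the control GABA range of 12.5 to 36.0 CPM (median 23.2). *Vax2*, a ventral eye and forebrain homeobox gene that was too low to test in control, was GABA-higher in the mutant (0.89 ± 0.23, adjusted p = 0.00756).

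Neuropeptide genes were called in both directions in both genotypes. Of 29 tested in *Eed-cKO*, 4 were GABA-higher and 12 Glut-higher (median −0.59, unchanged with *Pmch* at its bound), against 8 and 11 of 30 in control (median −0.72). Over all genes these shares were 1.66% and 3.39% in *Eed-cKO* and 2.37% and 3.93% in control. *Avp*, which encodes vasopressin, lay at 0 to 35.5 CPM (median 2.40) in GABA and 0 to 894 CPM (median 331) in Glut cells in the mutant, where 2 embryos had none in either class, and at 5.03 to 121 CPM (median 32.2) in GABA and 319 to 2186 CPM (median 923) in Glut cells in control. It was Glut-higher in 7 of 9 mutant embryos (−6.24 ± 0.21, adjusted p = 6.39e-32) and in 6 of 6 control embryos (−4.63 ± 0.25). *Cck*, cholecystokinin, lay at 15.4 to 88.9 CPM (median 31.4) in GABA and 56.4 to 403 CPM (median 301) in Glut cells in the mutant and was Glut-higher in all 9 embryos (−2.75 ± 0.15 against −3.84 ± 0.15 in control). The difference of *Cck* was not called, but it was in several fits that left out 1 embryo, from F0588_E7 (1.28, adjusted p = 0.00867) to control F4650_E2 (1.18, adjusted p = 0.0447). *Adcyap1*, the gene of PACAP, gave −2.47 ± 0.25 and −3.76 ± 0.20, with the classes apart in both genotypes. *Oxt*, oxytocin, was held by 3 UMIs in mutant GABA and 262 in mutant Glut cells, a ratio of 19.9 with an exact 95% counting interval of 6.72 to 96.9.

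On the GABA side, *Pnoc*, which encodes prepronociceptin, lay at 91.8 to 262 CPM (median 161) in GABA and 61.4 to 115 CPM (median 87.0) in Glut cells in the mutant and 116 to 190.2 CPM (median 122) in GABA and 20.6 to 46.8 CPM (median 36.2) in Glut cells in control. Its mutant Glut sums were all above the control Glut sums, and the contrast was 0.81 ± 0.12 against 1.94 ± 0.11 (difference −1.13 ± 0.17, adjusted p = 3.59e-05). *Npy*, neuropeptide Y, gave 2.19 ± 0.21 and 3.41 ± 0.25, and its mutant call was lost with DESeq2 (adjusted p = 0.0561) and after thinning (0.884). The difference of *Npy* was not called, but it was without control embryo F4520_E2 (−1.59, adjusted p = 0.0354). *Agrp*, expressed in feeding-promoting arcuate neurons, was called with 4.29 ± 0.53 in the mutant, but it was GABA-higher in 4 of 9 embryos and Glut-higher in 4, at 0 to 213 CPM (median 1.95) in GABA. The call was lost with DESeq2 (adjusted p = 0.575), and the levels of the 9 embryos spread from none to that maximum. *Nts*, neurotensin, turned from GABA-higher to Glut-higher. It lay at 0 to 71.1 CPM (median 26.6) in GABA and 23.5 to 174 CPM (median 92.9) in Glut cells in the mutant, Glut-higher in 9 of 9 embryos (−1.58 ± 0.17, adjusted p = 2.36e-10), and at 43.1 to 176 CPM (median 133) in GABA and 42.9 to 112 CPM (median 73.8) in Glut cells in control (0.65 ± 0.19, adjusted p = 0.0404). The difference was −2.22 ± 0.31 (adjusted p = 4.97e-06). The control call was lost without embryo F4690_E3 (0.34, adjusted p = 0.277), without F4530_E2 (0.60, 0.119) and without F4650_E1 (0.56, 0.139).

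For *Th* and *Ddc*, genes of dopamine synthesis, no difference of the class contrast was called. That does not show the contrasts to be equal, and their levels were not tested between genotypes. *Th*, tyrosine hydroxylase, lay at 16.8 to 30.9 CPM (median 25.7) in GABA and 0.900 to 9.41 CPM (median 6.52) in Glut cells in the mutant, with no overlap, and at 15.1 to 93.4 CPM (median 32.9) in GABA and 1.71 to 27.1 CPM (median 6.77) in Glut cells in control. The *Th* contrast was 2.20 ± 0.33 in *Eed-cKO* (adjusted p = 8.16e-07, 9 of 9 embryos) and 2.23 ± 0.27 in control (6 of 6), and the difference was −0.07 ± 0.47. *Ddc*, which encodes aromatic amino acid decarboxylase, gave 1.64 ± 0.21 and 1.64 ± 0.19 (difference 0.04 ± 0.28). Of 5 monoamine genes tested, 2 were called in the mutant and 3 in control, beside 5.05% and 6.3% of all genes. The mutant calls of *Th* and *Ddc* were lost after thinning (adjusted p = 0.149 and 0.289), and the reason was not tested.

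Some receptor genes were called between the mutant classes and not in control. Of 13 GABA receptor genes, none was GABA-higher and 4 were Glut-higher in the mutant (median −0.24), whereas in control 1 was GABA-higher and none Glut-higher (median 0.01). Either way, 5.05% of all genes were called in the mutant and 6.3% in control. *Gabrb1*, a subunit of the ionotropic receptor, gave −0.71 ± 0.15 in the mutant (adjusted p = 0.000807) and −0.12 ± 0.09 in control, without a called difference.

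Of 23 glutamate receptor genes, 2 were GABA-higher and 5 Glut-higher in the mutant (median −0.09), against 5 and 4 in control (median 0.00). The like shares over all genes were 1.66% and 3.39% in the mutant and 2.37% and 3.93% in control. *Grm5*, a metabotropic receptor, lay at 84.0 to 201 CPM (median 128) in GABA and 135 to 296 CPM (median 193) in Glut cells in the mutant, Glut-higher in 9 of 9 embryos (−0.54 ± 0.09, adjusted p = 3.09e-05), and was not called in control (0.09 ± 0.06). The difference was −0.61 ± 0.11 (adjusted p = 0.000354), and it was lost without the embryo block (adjusted p = 0.248) and after thinning (0.260). *Grm2* and *Grm4* kept a Glut bias, with −1.58 ± 0.23 and −1.62 ± 0.26 in the mutant and −1.35 ± 0.14 and −1.17 ± 0.19 in control. *Grik3*, a kainate receptor subunit, kept a GABA bias (1.08 ± 0.18 and 1.27 ± 0.11).

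Of 26 synaptic organizer genes, 2 were GABA-higher and 4 Glut-higher in the mutant, where 5.05% of all genes were called. In control 1 and 6 were, beside 6.3% of all genes. *Nrxn3*, a neurexin, lay at 336 to 520.4 CPM (median 399) in GABA and 103 to 230.4 CPM (median 149) in Glut cells in the mutant, with no overlap (1.47 ± 0.09, adjusted p = 2.51e-21, against 1.85 ± 0.07 in control). The difference of *Nrxn3* was not called, but it was without F0588_E7 (−0.465, adjusted p = 0.0182). *Cbln1* and *Cbln2*, secreted synapse organizers, were Glut-higher in every embryo of both genotypes. *Cbln1* lost part of its contrast (−1.21 ± 0.13 against −2.81 ± 0.14, adjusted p of the difference 4.79e-06), and for *Cbln2* the mutant value was −1.90 ± 0.15 against −1.21 ± 0.16, a difference that was not called (adjusted p = 0.472). The calcium-binding genes *Calb1* and *Calb2* were Glut-higher in both genotypes, with −0.86 ± 0.14 and −1.52 ± 0.16 in the mutant.

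Hox genes, which pattern the trunk and hindbrain and are textbook PRC2 targets, gave a contrast that had no counterpart in control. Over GABA and Glut cells together, the 34 Hox genes in the table held 5224 UMIs in *Eed-cKO* and 3 in control, and 31 of them had no control UMI, so none could be tested in control. In the mutant 14 of 30 tested were GABA-higher and none was Glut-higher (background 1.66%), with a list median of 1.19 and all 30 fold changes above 0. The called values ran from 0.95 to 1.99. *Hoxc9* lay at 17.7 to 50.1 CPM (median 30.4) in GABA and 4.42 to 15 CPM (median 7.41) in Glut cells, with no overlap between classes, and was higher in GABA in 9 of 9 embryos (1.87 ± 0.27, adjusted p = 6.15e-07). *Hoxa9* lay at 16.8 to 77.0 CPM (median 52.8) in GABA and 9.41 to 25.7 CPM (median 16.7) in Glut cells, higher in GABA in 9 of 9 embryos (1.68 ± 0.19, adjusted p = 5.38e-10). *Hoxa5* gave 1.88 ± 0.25 (adjusted p = 4.92e-08), *Hoxc10* 1.22 ± 0.17 (adjusted p = 1.22e-07) and *Hoxd10* 1.54 ± 0.25 (adjusted p = 5.76e-06), each higher in GABA in 8 of 9 embryos. Hox genes were thus present in both mutant classes, with *Hoxc10* at 20.2 to 84.6 CPM (median 30.5) in Glut cells. With at least 2 UMIs of the class gene, 13 of 27 were GABA-higher (median 1.41), and after thinning 7 of 26 were (median 0.79). *Hoxc10* and *Hoxc5* share annotated exon sequence, so reads of the pair may be shared.

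**Figure D5:**
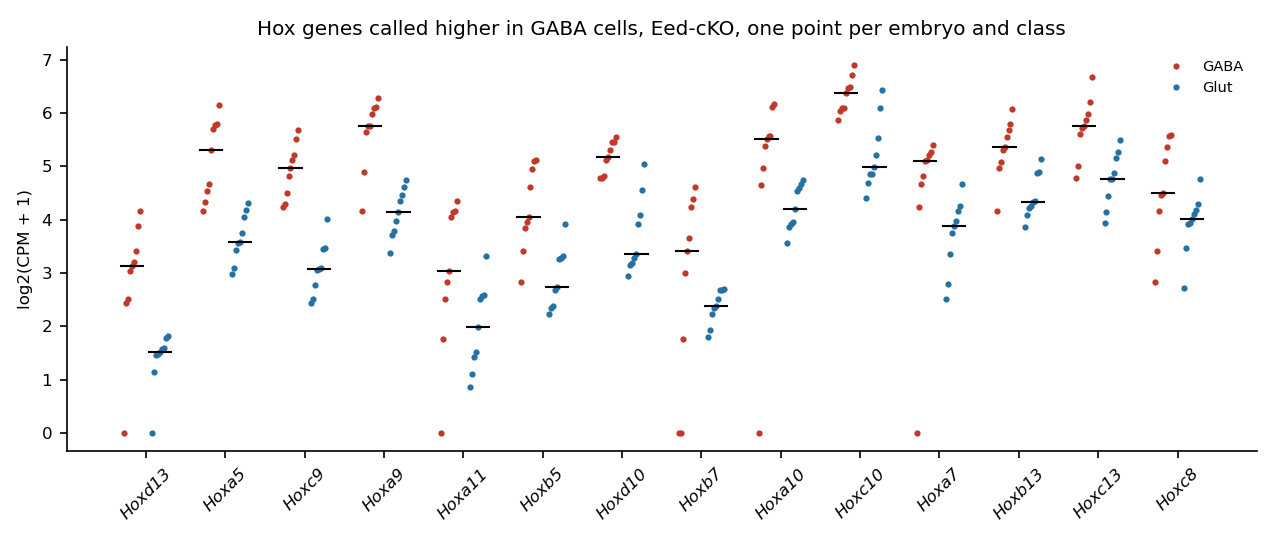
Level per embryo as log2(CPM + 1) of the 14 Hox genes called GABA-higher in *Eed-cKO*, in GABA (red) and Glut (blue) sums of the 9 embryos, with bars at the medians. The GABA median is above the Glut median for each of the 14 genes, and the red points at 0 come from embryos F0582_E2, F502_E6 and F502_E9.

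Among the other genes with a called difference or a large contrast, on the Glut side, *Nrn1*, neuritin, lay at 23.1 to 88.7 CPM (median 50.4) in GABA and 112 to 239.8 CPM (median 139.6) in Glut cells in the mutant and 3.88 to 13.1 CPM (median 7.54) in GABA and 138 to 203 CPM (median 157) in Glut cells in control. All mutant GABA sums were above all control GABA sums while the Glut sums overlapped, and the contrast was −1.50 ± 0.13 against −4.35 ± 0.14 (difference 2.85 ± 0.25, adjusted p = 2.13e-11). *Cacna2d1*, a calcium channel subunit, lay at 102 to 219 CPM (median 142) in GABA and 353 to 506 CPM (median 433) in Glut cells in the mutant and 24.4 to 59.2 CPM (median 38.4) in GABA and 284 to 523 CPM (median 462) in Glut cells in control, with the same order of the groups (difference 1.81 ± 0.17, adjusted p = 5.07e-10). *Nxph4*, neurexophilin, kept its contrast, at 0 to 9.92 CPM (median 0) in GABA and 20.7 to 85.2 CPM (median 43.1) in Glut cells in the mutant and with fold changes of −3.70 ± 0.32 and −3.85 ± 0.24. *Irx5*, an Iroquois homeobox gene, gave −2.95 ± 0.39 and −4.07 ± 0.36. *Kitl*, the ligand of the Kit receptor, was Glut-higher in control (−2.20 ± 0.20) and not called in the mutant (0.40 ± 0.17, adjusted p = 0.217). Its control sums spread widely, at 16.3 to 70.1 CPM in GABA and 50.1 to 437 CPM in Glut cells. In its mutant Glut sums F502_E6 lay at 228.5 CPM and the other embryos at 19.3 to 52.2 CPM, and without that embryo the mutant value was 0.69 GABA-higher (adjusted p = 0.00280).

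On the GABA side, *Pmaip1*, a pro-apoptotic gene of the BCL2 family, lay at 12.2 to 64.7 CPM (median 30.3) in GABA and 2.47 to 27.2 CPM (median 13.8) in Glut cells in the mutant and 2.77 to 92.0 CPM (median 24.6) in GABA and 0 to 0.686 CPM (median 0.473) in Glut cells in control, where Glut cells held 7 UMIs in all. The contrast was 1.67 ± 0.26 against 6.04 ± 0.35, with a difference of −4.28 ± 0.50 (adjusted p = 8.93e-08), and the mutant call was lost after thinning (adjusted p = 0.238). *Ecel1*, an endopeptidase-like gene of neurons, lay at 66.4 to 151 CPM (median 99.2) in GABA and 12.6 to 56.2 CPM (median 29.5) in Glut cells in the mutant, with the classes apart, and had a difference of −1.50 ± 0.23 from control (adjusted p = 3.80e-05). *Gm14204* is a noncoding transcript on the minus strand at chr2:158595472-158610723 (GRCm38), next to *Slc32a1*, which chose the cells and starts on the plus strand at 158610767. It lay at 127 to 168 CPM (median 154) in GABA and 19.8 to 39.1 CPM (median 25.9) in Glut cells in the mutant and 91.7 to 116 CPM (median 94.7) in GABA and 3.05 to 13.6 CPM (median 4.83) in Glut cells in control. *Gm14204* was higher in every mutant sum of either class than in any control sum of that class, and its contrast was 2.51 ± 0.13 against 4.06 ± 0.17 (adjusted p of the difference 2.93e-05).

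Of 4 marker genes of leptomeningeal cells, *Col1a1*, *Col1a2* and *Dcn*, which encode collagen chains and decorin, were called GABA-higher in *Eed-cKO*, and 2 of 4 were Glut-higher in control. Their summed level was 0 to 440.3 CPM in mutant GABA sums (median 199.98), 0 to 386 CPM in mutant Glut sums (median 87.5), 0.85 to 44.1 CPM in control GABA sums (median 4.50) and 1.77 to 82.1 CPM in control Glut sums (median 31.6). Without cells that held at least 3 UMIs of non-neuronal markers, *Col1a2* and *Dcn* were not called in the mutant (adjusted p = 0.768 and 0.894), and *Col1a1* was too low to be tested there. After thinning to 2000 UMIs *Col1a2* was called in the opposite direction (−1.65, adjusted p = 1.55e-05), and *Col1a1* and *Dcn* were at −0.32 and −0.85 (adjusted p = 0.938 and 0.495). The mutant calls were also lost with 1 embryo left out, for *Col1a1* without F0652_E5 (0.92), for *Col1a2* without F0588_E7 (0.49) or F502_E9 (0.51) and for *Dcn* without F0582_E7 (0.50), F0589_E1 (0.73) or F502_E9 (0.73). The Glut-higher call of *Col1a1* in control was lost without F4530_E2 (−1.46), F4650_E1 (−1.74), F4650_E2 (−1.98) or F4690_E3 (−1.87). Where 5.05% of all genes were called between the mutant classes, endothelial, microglial, ependymal, pituitary, cycling and astrocyte markers had no called member. Pericyte, oligodendrocyte precursor and tanycyte markers had 1 each. Among the 10 genes called in opposite directions in the genotypes, *Col1a1*, *Col3a1* and *Dcn* are of this kind, and *Tcf7l2*, *Shox2*, *Tfap2b*, *Nts*, *Cdkn1c*, *Epas1* and *Zeb2* are the others, the last 2 and *Col3a1* being chosen after their values were seen. Without these cells the differences of *Gad1* and *Gad2* were −2.58 and −2.02, and the part of leptomeningeal RNA in the other contrasts was not tested. In these sums fewer cells of a type and less RNA per cell cannot be told apart.

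No PRC2 gene was called between the classes, and 2 cell cycle inhibitors were. None of 10 PRC2 genes was called in *Eed-cKO* (median −0.06) and none of 9 in control. Over all genes, 5.05% were called in the mutant and 6.3% in control, so having none called does not set these genes apart. Of 7 inhibitor genes of cyclin-dependent kinases, *Cdkn1a* was Glut-higher in the mutant (−0.72 ± 0.13) and in control (−0.78 ± 0.11). *Cdkn1c* was GABA-higher in the mutant (0.37 ± 0.11, adjusted p = 0.0308) and Glut-higher in control (−0.31 ± 0.08, adjusted p = 0.0245), but the mutant call was lost without the embryo block (adjusted p = 0.297) and without any one of F0571_E3 (0.39, adjusted p = 0.0502), F0582_E7 (0.23, 0.315) and F0588_E7 (0.30, 0.170). The control call of *Cdkn1c* was likewise lost without any one of F4520_E4 (−0.30, adjusted p = 0.0683), F4530_E2 (−0.24, 0.0829) and F4650_E2 (−0.25, 0.129). *Stmn2* and *Tubb3*, general neuronal genes, were Glut-higher in both genotypes (−0.46 ± 0.04 and −0.32 ± 0.05 in the mutant, −0.30 ± 0.03 and −0.33 ± 0.04 in control), and *Syt1*, a synaptic vesicle gene, was GABA-higher in both (0.37 ± 0.08 and 0.59 ± 0.06).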

How the data were processed

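Single cells of E18.5 hypothalamus from 6 control and 9 *Eed-cKO* embryos were sequenced in 22 and 26 libraries. The authors deposited a table of UMI counts for 16510 genes in 14121 cells, not normalized, after removing shallow cells (the lowest cell held 601 UMIs). The submitters' processing notes name STAR 2.5.2b, SAMtools 1.3 and the mm10 build, and whether counting used the strand was not given in the sources used here. Libraries were assigned to embryos and genotypes by their labels.

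The members, gene lists and tests were chosen with earlier results of these data known. Cells with at least 2000 UMIs were put into classes by *Slc32a1* and *Slc17a6*, counts were summed per embryo and class, both genes were removed, and genes with at least 15 UMIs in all and at least 2 in 1 sum were tested by edgeR 4.0.16 (R 4.3.3) with TMM scaling, the quasi-likelihood test and the embryo as block. The pairing is that of 2 classes of the same embryo. The correlation of the deviations of the 2 sums was 0.0417 to 0.2307 in *Eed-cKO* and 0.0912 to 0.3823 in control. The difference of contrasts came from 1 joint model, and adjustment was by Benjamini-Hochberg over all genes tested. Where a ratio of UMIs is given for a gene with 1 to 3 UMIs in a class, its exact 95% interval stands beside it, and such intervals cover counting error only. Shares of cells were compared over embryos by exact permutation tests (scipy 1.17.1). The scripts were tested on simulated data.

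Genes were named by rule: the 10 largest called contrasts in each direction with at least 20 CPM and the same direction in every embryo, up to 8 called differences in each direction by adjusted p, 5 genes in each direction with the largest contrast called in both genotypes, and up to 4 called members of each list and direction, with *Tfap2a*, *Tfap2b*, *Pax2*, *Pax8*, *Lhx5*, *Gad1*, *Gad2* and *Eed*. *Meis2*, *Dlx6*, *Ebf1*, *Hoxd10*, *Vax2*, *Oxt*, *Pmch*, *Col3a1*, *Epas1* and *Zeb2* fell outside it and were chosen after their values were seen. Alternatives covered scaling, gene filters, DESeq2 1.42.0, limma 3.58.1, the block, cell depth, thinning, the class threshold, non-neuronal cells, Scrublet scores (scanpy 1.11.5, the highest 6% of scores removed, 848 cells), each embryo left out and, chosen after seeing the data, embryos of the same F number combined. Doublets were otherwise kept. In the thinned fits the classes were called on the thinned counts, whereas the Gad shares kept the classes of the full counts. Some genes that enter the list counts are not reported here by name.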

Additional observations from a re-analysis of the deposited data

Results flagged for a closer look

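In 12 of 117 groups of embryos tested, 1 embryo lay farther from the others than Dixon's 95% limit, a limit that chance passes in about 1 of 20 groups. In *Eed-cKO* Glut sums, F502_E6 held *Tcf7l2* at 491 CPM (others 35.3 to 101) and *Kitl* at 228.5 CPM (others 19.3 to 52.2). In the same class F0582_E2, the smallest embryo, held *Tbr1* at 70.5 CPM (others 16 to 40.5) and *Neurod6* at 155 CPM (others 9.03 to 76.5), and F502_E9 held *Ecel1* at 56.2 CPM (others 12.6 to 34.1). In GABA sums *Lhx6* was at 134 CPM in mutant F0589_E1 (others 16.8 to 64.5) and at 157 CPM in control F4650_E1 (others 27.1 to 67.9). Control F4650_E2 stood apart for *Dlx1* (42.7 CPM), *Gm14204* (13.6 CPM) and *Th* (27.1 CPM) in Glut sums and for *Sim1* (13.3 CPM) in GABA sums, and control F4690_E3 for *Gm14204* in GABA sums (116 CPM).

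The contrast of the classes differed between genotypes by the test of the difference itself. It was shifted toward GABA in *Eed-cKO* for *Nrn1* (2.85 on the log2 scale), *Cacna2d1* (1.81), *Shox2* (4.08), *Tcf7l2* (2.83), *Tbr1* (4.16), *Tfap2b* (6.38), *Lhx2* (2.58) and *Kitl* (2.57). It was shifted toward Glut for *Gad1* (−2.61), *Gad2* (−2.05), *Gata3* (−4.59), *Six3* (−1.46), *Pmaip1* (−4.28), *Six6* (−1.86), *Tal1* (−2.96) and *Nts* (−2.22). The gap in the share of cells with a *Gad1* or *Gad2* UMI changed by −26.7 percentage points.

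Cells that held UMIs of both *Slc32a1* and *Slc17a6* entered no contrast. In *Eed-cKO*, the median embryo had a *Gad1* or *Gad2* UMI in 72.4% of them after thinning (64.1% to 79.9% over embryos), and in control the median was 58.5% (49.6% to 68.3%).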

How the results depend on the processing

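Mutant GABA sums held 52231 to 615546 UMIs, fewer than all control sums. Among the named genes, 2343 values of the mutant contrast over all alternatives stayed on the same side of the threshold, 185 lost the call, 4 gained it and 7 reversed. A change of direction was counted as reversed only where the gene was called in the main or the alternative fit. Without the embryo as replicate block, 469 genes were called in *Eed-cKO*, 446 in control and 47 for the difference, and 74 GABA-higher and 142 Glut-higher control genes were called again. Thinned to 2000 UMIs, these counts were 271, 351, 64, 46 and 98, and with limma-voom TREAT 318, 391, 68, 74 and 98. Under TREAT 48 differences were positive and 20 negative, the balance limma-voom also gave. DESeq2 called 431 genes in control and 91 differences, with 152 Glut-higher control genes called again. With no gene filter 292 differences were called, and with at least 2 UMIs of the class gene 460 genes in *Eed-cKO*. Leaving out 1 embryo gave 566 to 732 genes in *Eed-cKO*, 693 to 851 in control, 113 to 172 differences, 97 to 117 GABA-higher and 220 to 267 Glut-higher genes called again. The cause of these changes was not tested. For the Gad share, the lower value in mutant GABA cells was called when thinned to 1000 UMIs (−8.59 points) and when 2 Gad UMIs were required (−13.5), and lay between −6.86 and −4.18 with 1 embryo left out, called without F0582_E2. With embryos of the same F number combined, chosen after seeing the data, the gap was 46.5 points in *Eed-cKO* (adjusted p = 0.0521) and 74.3 in control (0.125), both at the smallest p that 6 and 4 replicates allow, and 728 genes were called in *Eed-cKO*, 819 in control and 153 for the difference. The control gap was 72.9 to 75.6 points with 1 embryo left out, where 5 embryos cannot pass. The direction reversed when thinned for *Vtn* (−0.59), *Col1a1* (−0.32), *Col1a2* (−1.65, called in this direction at adjusted p = 1.55e-05) and *Dcn* (−0.85) in *Eed-cKO* and *Nts* in control (−0.11), with at least 2 UMIs for *Col1a1* in control (0.26) and the difference of *Col1a2* (−0.55), and without non-neuronal cells for *Vtn* (−1.63). With both settings together, chosen after seeing the data, *Vtn* was −3.05 and *Dcn* −1.21 in *Eed-cKO*, and the difference of *Dcn* was −2.18.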
